A study of Mus musculus with 15 samples.

Results

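The genes described here are 9 components and receptors of the complement system: the anaphylatoxin receptors C3ar1 and C5ar1, the alternative pathway genes Cfb, C3 and Cfp, the classical pathway genes C1qa, C1qb and C4b, and Hc, the mouse gene of complement C5. A probe counted as a member where the platform annotation gave it exactly one of these symbols. That rule found 8 probes of 17225, 1 for each gene except C3, so 8 of the 12909 genes named on the array. No probe is annotated to C3 alone, so C3 was not analysed here. The probes were M200000906 for C3ar1, M200014904 for C5ar1, M200000230 for Cfb, M200002699 for Cfp, M200000131 for C1qa, M200000979 for C1qb, M200003415 for C4b and M200000825 for Hc.

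The samples were total RNA of mouse alveolar macrophages on 15 spotted 2-colour oligonucleotide arrays, 5 in each of 3 groups, each set against a reference RNA named for macrophages. The wild type mice (b6+/+Dox) carry the integrin beta6 subunit, the beta6 null mice (b6-/-Dox) lack it, and the third group (b6-/-TGFb+/+Dox) is beta6 null with TGFb1 supplied. Doxycycline, the antibiotic that switches tetracycline-controlled transgenes, was given to all 3 groups, the controls among them. The labels name no promoter, strain, age or pooling of animals, and no wild type group with TGFb1 was among these samples, so what TGFb1 does in mice that keep beta6 was not measured. Nor do they tie each array to an animal of its own. The spread behind each p-value is that between arrays within groups, pooled over the 3 groups and drawn toward that of all features. It could therefore be technical. Replicate numbers here follow accession order within a group and only name the arrays.

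Complement is a cascade of plasma and tissue proteins that marks particles for uptake. The classical pathway starts when C1q, built from chains encoded by C1qa, C1qb and C1qc, binds its target and leads to cleavage of C4 and C2. The alternative pathway amplifies cleavage of C3 through factor B (Cfb), with properdin (Cfp) stabilising the enzyme. The fragments C3a and C5a act on G protein-coupled receptors encoded by C3ar1 and C5ar1. Macrophages are a known source of C1q and properdin and carry both receptors.

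In beta6 null macrophages C3ar1 was 8.96-fold higher and Cfb was 2.85-fold lower than in wild type, and no other gene of the set passed. With TGFb1, Cfb was 3.48-fold higher than in beta6 null, while C3ar1 lay between the other groups. C5ar1, the second anaphylatoxin receptor, showed no such difference. Between the TGFb1 group and wild type no gene of the set passed. Values are log2 ratios of sample over reference, centred on each array's median. The direction of the ratio is taken, not stated in the sources: it follows the channel order in the labels and the known rise of Mmp12 (macrophage elastase) in these mice, and if it were inverted every sign below would turn. The base of the logarithm is also taken as 2.

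The sequence upstream of the 2 receptor genes is shown because receptors of related fragments gave different readings. The RefSeq promoter table of build GRCm38.p6 holds 6 of the 9 genes. The 250 bases before the annotated start lie at chr6:122856158-122856407 for C3ar1 and at chr7:16259339-16259588 for C5ar1, both on the minus strand. They are written 5′ to 3′ on the gene's strand, with matches to the AP-1 motif TGANTCA and to the NF-kB motif (GGG, any 2 bases, TTTCC) in capitals.
C3ar1: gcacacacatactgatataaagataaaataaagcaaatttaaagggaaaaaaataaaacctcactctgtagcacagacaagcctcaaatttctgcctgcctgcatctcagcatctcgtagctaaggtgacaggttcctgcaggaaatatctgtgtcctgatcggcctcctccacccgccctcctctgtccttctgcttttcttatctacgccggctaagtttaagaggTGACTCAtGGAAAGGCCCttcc
C5ar1: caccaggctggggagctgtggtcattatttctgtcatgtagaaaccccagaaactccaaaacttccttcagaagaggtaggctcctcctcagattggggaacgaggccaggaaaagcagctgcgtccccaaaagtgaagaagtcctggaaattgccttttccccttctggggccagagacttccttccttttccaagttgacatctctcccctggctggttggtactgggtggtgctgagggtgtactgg
Both strands were searched. The C3ar1 sequence held 1 AP-1 match, 22 to 16 bases before the start, and 1 NF-kB match on the opposite strand, 14 to 5 bases before it. The C5ar1 sequence held neither. Of 32851 upstream sequences of the same length in the table, 6.75% held the AP-1 motif and 1.41% the NF-kB motif. Of the 6 genes of the set, C3ar1 was the 1 that held either. The PU.1 motif GAGGAAG (10.6% of all sequences), the Smad motif GTCTNGAC (1.47%) and the IRF motif (GAAA, any 2 bases, GAAA; 2.98%) were in none of the 6. The shorter Smad box CAGAC (42.2% of all) was in C3ar1 and Cfp, and the C/EBP motif TTGCNNAA (9.56%) was in C3. A match of letters is a description of the sequence and not a binding site.

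C3ar1, the receptor of the fragment C3a, was measured on all 15 arrays. The wild type arrays read 0.30, -1.20, 0.33, 0.77 and 0.28. The beta6 null arrays read 2.85, 3.40, 4.01, 3.22 and 2.80. The TGFb1 arrays read 2.08, 2.28, -0.02, 0.29 and 0.37. Every beta6 null array lay above every array of both other groups, while the TGFb1 and wild type arrays overlapped. Of 6924 features with all 10 values, 4.49% did not overlap between beta6 null and wild type, 1.63% higher and 2.86% lower. Of 8104 such features, 9.93% did not overlap between the TGFb1 group and beta6 null, 8.35% higher and 1.58% lower.

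C3ar1 averaged 0.09 ± 0.75 over the wild type arrays, 3.26 ± 0.49 over the beta6 null arrays and 0.999 ± 1.09 over the TGFb1 arrays (SD, n = 5 each). It rose in beta6 null by 3.16 (SE 0.50, 95% interval 2.10 to 4.23, limma adjusted p = 0.00505), rank 35 by p of 13273 features. With TGFb1 the level stood 2.26 below beta6 null (difference -2.26, SE 0.50, 95% interval -3.32 to -1.20), which just missed the threshold (adjusted p = 0.0524). It passed without wild type replicate 2 (adjusted p = 0.0212) and without TGFb1 replicate 2 (0.0375). Leaving out any 1 array moved this p between 0.0212 and 0.147. Over all 27 other fits, of which 22 did not pass, it ran from 0.00362 to 0.55. The difference ran from -2.58 to -1.70 in these fits. The TGFb1 group against wild type gave 0.90 (SE 0.50, 95% interval -0.16 to 1.97, adjusted p = 0.820). The TGFb1 arrays were split, with replicates 1 and 2 above every wild type array and below every beta6 null array, and replicates 3, 4 and 5 within the range of wild type. That split was seen in the values, and no test was made of it.

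**Figure D1:**
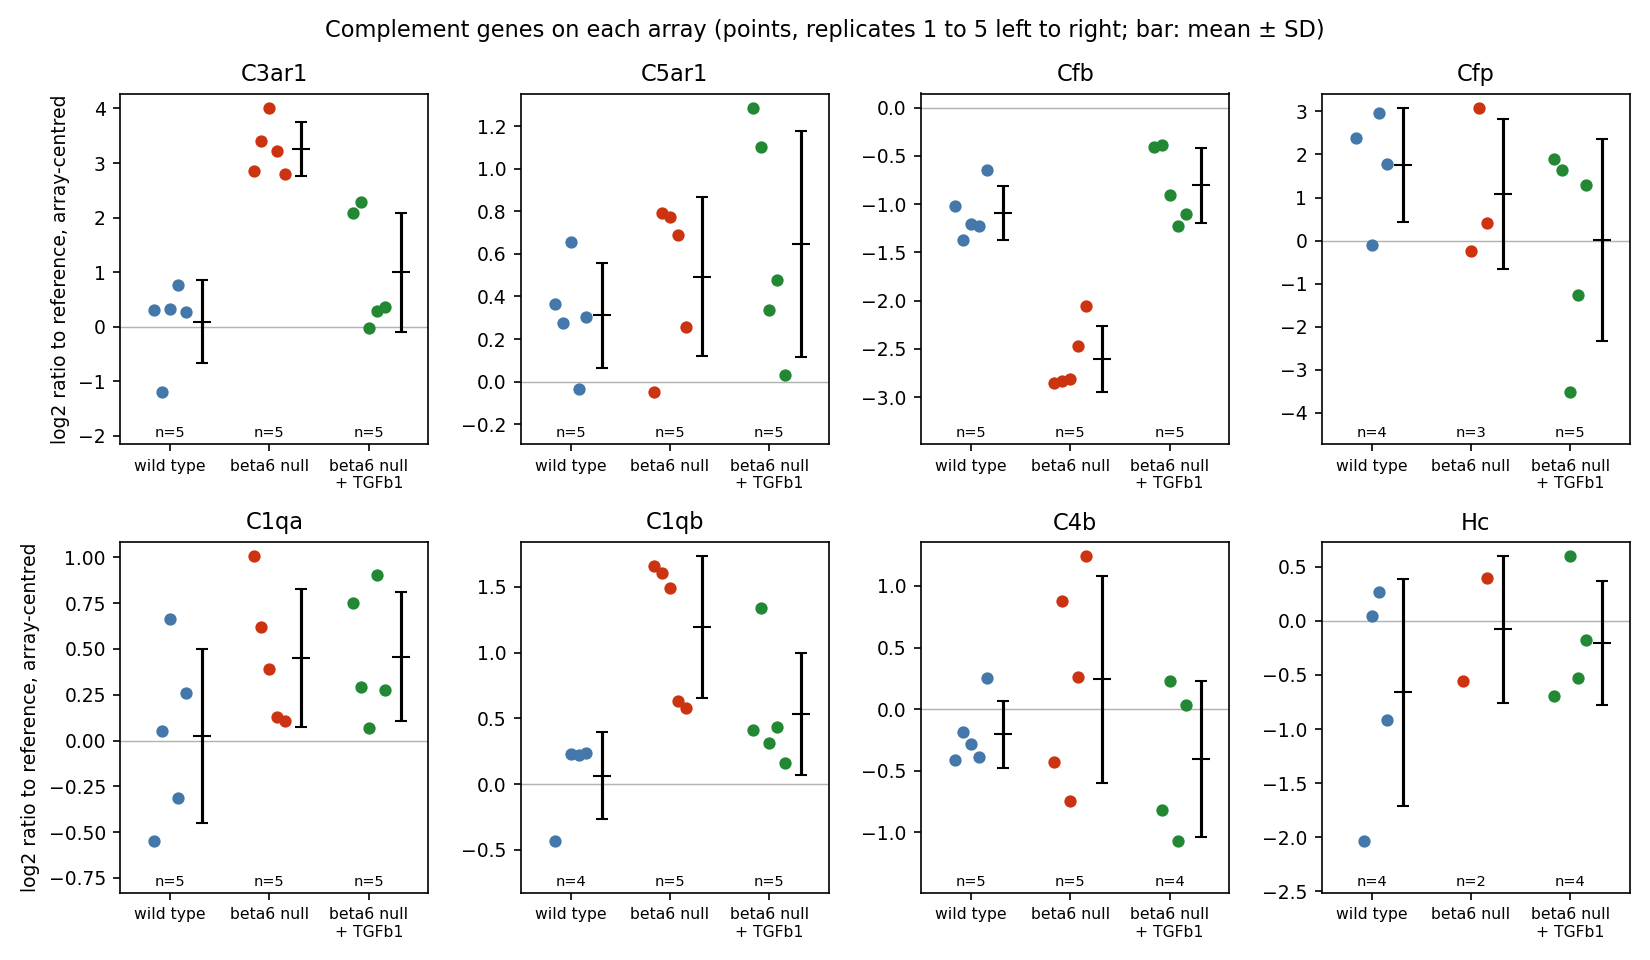
Each point is the log2 ratio to the reference on 1 array, centred on the array's median, for the 8 complement genes, by group; bars give mean ± SD, n is the number of arrays with a value, and each panel has its own axis. C3ar1 reads 2.80 to 4.01 on the beta6 null arrays and -1.20 to 0.77 on the wild type arrays, Cfb reads -2.85 to -2.05 against -1.37 to -0.65, and the groups overlap for C5ar1, Cfp, C1qa, C4b and Hc.

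C5ar1, the receptor of the fragment C5a, was also measured on all 15 arrays. Wild type arrays read 0.36, 0.27, 0.66, -0.04 and 0.30. Beta6 null arrays read -0.05, 0.79, 0.77, 0.69 and 0.26. TGFb1 arrays read 1.29, 1.10, 0.34, 0.48 and 0.03. The groups overlapped throughout, and the highest readings were those of TGFb1 replicates 1 and 2, which for C3ar1 were highest only within their group. The means were 0.31 ± 0.25, 0.49 ± 0.37 and 0.65 ± 0.53 (SD, n = 5 each). Beta6 null stood 0.18 above wild type (SE 0.29, 95% interval -0.44 to 0.80, adjusted p = 0.846), an interval that lies below the whole interval of C3ar1. The TGFb1 group stood 0.15 above beta6 null (95% interval -0.47 to 0.78, adjusted p = 0.852) and 0.33 above wild type (95% interval -0.29 to 0.96, adjusted p = 0.862). The gene C5ar2, which lies next to C5ar1 in the RefSeq order and encodes another C5a receptor, has no probe named for it.

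Cfb encodes factor B, whose fragment Bb is the protease of the alternative pathway. Wild type arrays read -1.02, -1.37, -1.20, -1.22 and -0.65. Beta6 null arrays read -2.85, -2.83, -2.82, -2.47 and -2.05. TGFb1 arrays read -0.41, -0.38, -0.90, -1.23 and -1.11. All 5 beta6 null arrays lay below all arrays of both other groups, and the other two groups overlapped. Over the arrays Cfb averaged -1.09 ± 0.28, -2.60 ± 0.35 and -0.80 ± 0.39 in the same order (SD, n = 5 each). Cfb fell by 1.51 in beta6 null (SE 0.27, 95% interval -2.08 to -0.94, adjusted p = 0.0121), rank 52 of 13273 by p. It was higher with TGFb1 than in beta6 null by 1.80 (SE 0.27, 95% interval 1.23 to 2.37, adjusted p = 0.00588), rank 16 by p. Against wild type the TGFb1 group stood at 0.29 (SE 0.27, 95% interval -0.28 to 0.86, adjusted p = 0.873). Both comparisons that passed share the beta6 null arrays, so they are not independent of each other.

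The call of Cfb in beta6 null against wild type ended under quantile normalization (-1.12, adjusted p = 0.156) and after scaling all arrays to equal spread (-1.07, adjusted p = 0.191). It also ended when only the 10 arrays of those groups were fitted (adjusted p = 0.0743). The call with TGFb1 ended under the same 2 scalings (1.22 and 1.19, adjusted p = 0.138 and 0.141). The call of C3ar1 in beta6 null held under quantile normalization (2.79, adjusted p = 0.0192) and ended with equal spread (2.52, adjusted p = 0.0605). All of these calls held in each fit that left out 1 array, with a highest adjusted p of 0.019 for C3ar1 and of 0.0397 and 0.0237 for Cfb.

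In the set as a whole, 2 of 7 tested genes passed in beta6 null against wild type, 1 higher and 1 lower, where 0.949% of all 13273 features passed, 0.362% higher and 0.588% lower. In the TGFb1 group against beta6 null 1 of 7 passed, higher, where 0.708% of all features passed, 0.58% higher and 0.128% lower. In the TGFb1 group against wild type 0 of 7 passed by limma, beside 0% of all features. An unadjusted p under 0.05 was found there for 0 of 7, beside 6.28% of all features. In beta6 null against wild type it was found for 3 of 7, beside 11.5%, and in the TGFb1 group against beta6 null for 2 of 7, beside 15%. The median difference of the 7 genes was 0.43 in beta6 null against wild type, beside -0.05 for all features. In the TGFb1 group against beta6 null it was -0.65, beside 0.12 for all features. In the TGFb1 group against wild type it was 0.33, beside 0.07.

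**Figure D2:**
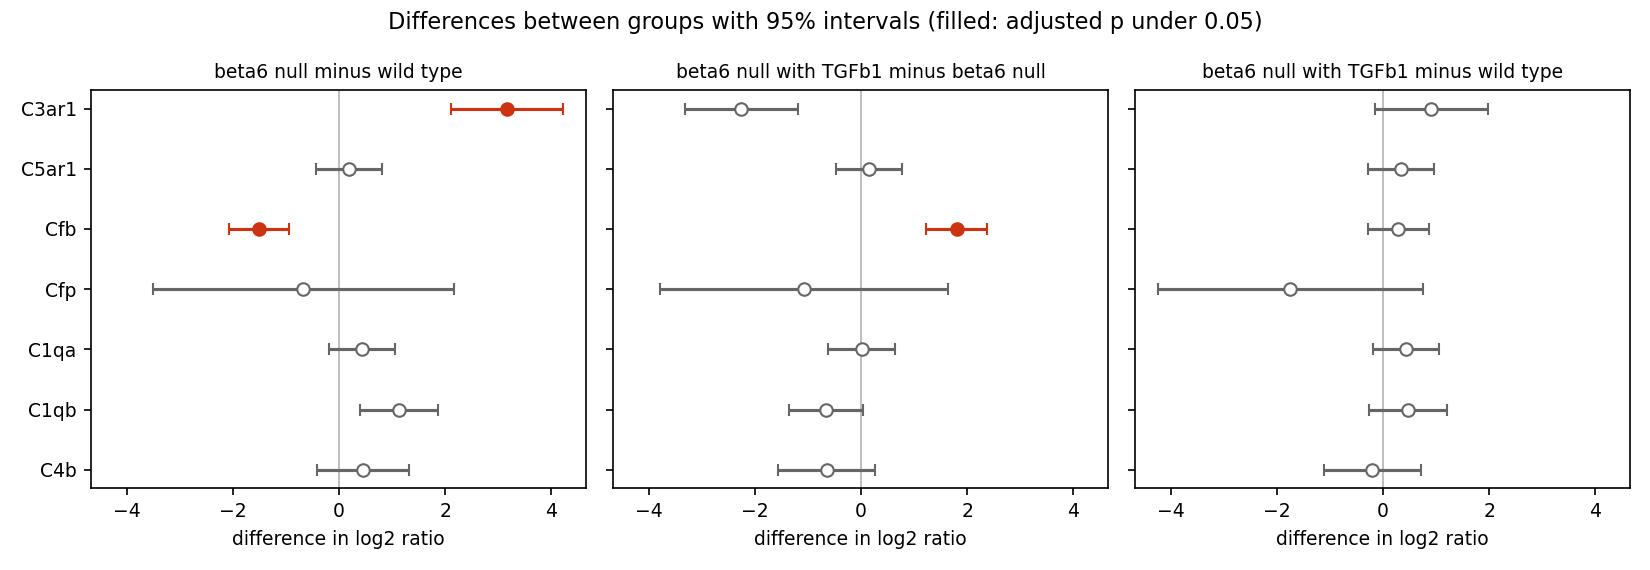
Differences in log2 ratio between groups with their 95% intervals from the limma fit, for the 7 complement genes tested, in each of the 3 comparisons; filled points passed at an adjusted p under 0.05. C3ar1 at 3.16 and Cfb at -1.51 pass in beta6 null against wild type, Cfb at 1.80 passes with TGFb1 against beta6 null, and the intervals of Cfp are the widest of the 7.

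C1qb and C1qa encode the B and A chains of C1q, and in the RefSeq order they flank C1qc, the gene of the C chain. C1qb read -0.43, 0.23, 0.22 and 0.24 on 4 wild type arrays, with no value on replicate 2. It read 1.65, 1.61, 1.49, 0.63 and 0.58 in beta6 null. It read 0.41, 1.34, 0.31, 0.44 and 0.16 with TGFb1. All beta6 null arrays lay above the wild type arrays that had a value, and the TGFb1 arrays overlapped with both groups. The shares of non-overlapping features given above cover only features without missing values in the groups compared. They leave C1qb out, so how common such a separation is among features with a missing value was not tested. The means were 0.06 ± 0.33 (SD, n = 4), 1.19 ± 0.54 (n = 5) and 0.53 ± 0.46 (n = 5). The difference between beta6 null and wild type was 1.13 (SE 0.34, 95% interval 0.40 to 1.86) and did not pass over all features (adjusted p = 0.181). With TGFb1 the difference from beta6 null was -0.66 (SE 0.32, 95% interval -1.35 to 0.03, adjusted p = 0.356).

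C1qa read -0.55, 0.05, 0.66, -0.31 and 0.26 in wild type. It read 1.01, 0.62, 0.39, 0.13 and 0.11 in beta6 null. It read 0.75, 0.29, 0.07, 0.90 and 0.28 with TGFb1. The 3 groups overlapped. The means were 0.02 ± 0.47, 0.45 ± 0.37 and 0.46 ± 0.35 (SD, n = 5 each). The difference between beta6 null and wild type was 0.43 (SE 0.29, 95% interval -0.20 to 1.06, adjusted p = 0.589) and that between the TGFb1 group and beta6 null was 0.01 (95% interval -0.62 to 0.63, adjusted p = 0.994). C1qc, named after its values were seen because it completes the trio, averaged 0.03 ± 0.30 over 4 wild type arrays, 0.37 ± 1.17 over 5 beta6 null arrays and -0.58 ± 2.54 over 5 TGFb1 arrays (SD), and passed in no comparison. The TGFb1 mean of C1qc includes -4.92 on replicate 3, beside -0.52 to 1.31 on the other TGFb1 arrays. All 3 C1q genes had a higher mean in beta6 null than in wild type, and none passed. For C1qc that difference (0.34, SE 1.03) was smaller than its SE, and a joint rise of the 3 genes was not tested.

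C4b encodes C4, the classical pathway substrate of C1s. It read -0.42, -0.18, -0.29, -0.39 and 0.25 in wild type. It read -0.43, 0.88, -0.75, 0.26 and 1.24 in beta6 null. It read -0.82, 0.23, -1.07 and 0.03 on 4 arrays with TGFb1. The groups overlapped, with a wider spread in beta6 null (SD 0.84, n = 5) than in wild type (SD 0.27, n = 5). The difference between beta6 null and wild type was 0.45 (SE 0.40, adjusted p = 0.694) and that between the TGFb1 group and beta6 null was -0.65 (SE 0.43, adjusted p = 0.508). C4a, a near-identical copy, has no probe named for it, and whether the C4b probe separates the copies is not known.

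Cfp encodes properdin, made by myeloid cells. It had values on 12 arrays, 4 in wild type (2.39, -0.10, 2.96 and 1.78), 3 in beta6 null (-0.24, 3.07 and 0.42) and 5 with TGFb1 (1.90, 1.64, -3.53, -1.27 and 1.29). The groups overlapped widely, with means of 1.76 ± 1.33, 1.08 ± 1.75 and 0.01 ± 2.35 (SD). The difference between beta6 null and wild type was -0.67 (SE 1.30, 95% interval -3.52 to 2.17, adjusted p = 0.875), so a change of several-fold either way could not be detected. Hc, the precursor of C5a and of the membrane attack complex, had values on 10 arrays: 4 in wild type (-2.04, 0.04, 0.27 and -0.92), 2 in beta6 null (-0.56 and 0.40) and 4 with TGFb1 (-0.70, 0.60, -0.53 and -0.18). With fewer than 3 values in beta6 null it did not enter the fit. Without that minimum its difference was 0.58 in beta6 null against wild type (SE 0.69, adjusted p = 0.800), on the 2 and 4 arrays that had a value.

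Of 52 other complement genes in 4 lists, 37 had a probe and 28 were tested. In beta6 null against wild type 1 of 28 passed, higher, beside 0.949% of all features. An unadjusted p under 0.05 was found there for 1 of 28, beside 11.5% of all features. With TGFb1 against beta6 null 0 of 28 passed by limma, beside 0.708% of all features, and 3 had an unadjusted p under 0.05, beside 15% of all features. With TGFb1 against wild type 0 of 28 passed by limma, beside 0%, and 2 had an unadjusted p under 0.05, beside 6.28%. The median difference of the 28 was -0.07 in beta6 null against wild type, 0.14 with TGFb1 against beta6 null and -0.27 with TGFb1 against wild type. For all features it was -0.05, 0.12 and 0.07 in the same order. None of the 9 genes tested of the classical and lectin start, the 2 of the terminal pathway and the 9 regulators passed in any of the 3 comparisons. Of the 8 receptor genes 1 passed.

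That gene was Cd93, a membrane glycoprotein once described as a C1q receptor and known for a part in the clearance of dying cells. It read -1.88, -1.47, -2.04, -1.69 and -1.43 in wild type. It read 0.20, 2.70, 2.52, 2.33 and 2.08 in beta6 null. It read 0.85, 1.52, -0.49, -0.32 and -0.42 with TGFb1. All arrays of beta6 null and of the TGFb1 group lay above all wild type arrays, and the TGFb1 arrays overlapped with beta6 null. Between the TGFb1 group and wild type 2.36% of 8176 features did not overlap, 1.74% higher and 0.624% lower. Cd93 rose in beta6 null by 3.67 (SE 0.49, adjusted p = 0.00127), 12.7-fold. With TGFb1 it stood at -1.74 from beta6 null (SE 0.49, adjusted p = 0.109), and this passed without beta6 null replicate 1, the array with the lowest reading (-2.18, adjusted p = 0.0253). Leaving out any 1 array moved this p between 0.0253 and 0.252, and over all 27 other fits, of which 24 did not pass, it ran from 0.00329 to 0.681. Against wild type the TGFb1 group stood at 1.93 (SE 0.49, 95% interval 0.88 to 2.97, adjusted p = 0.651). As for C3ar1, TGFb1 replicates 1 and 2 read highest of their group.

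**Figure D3:**
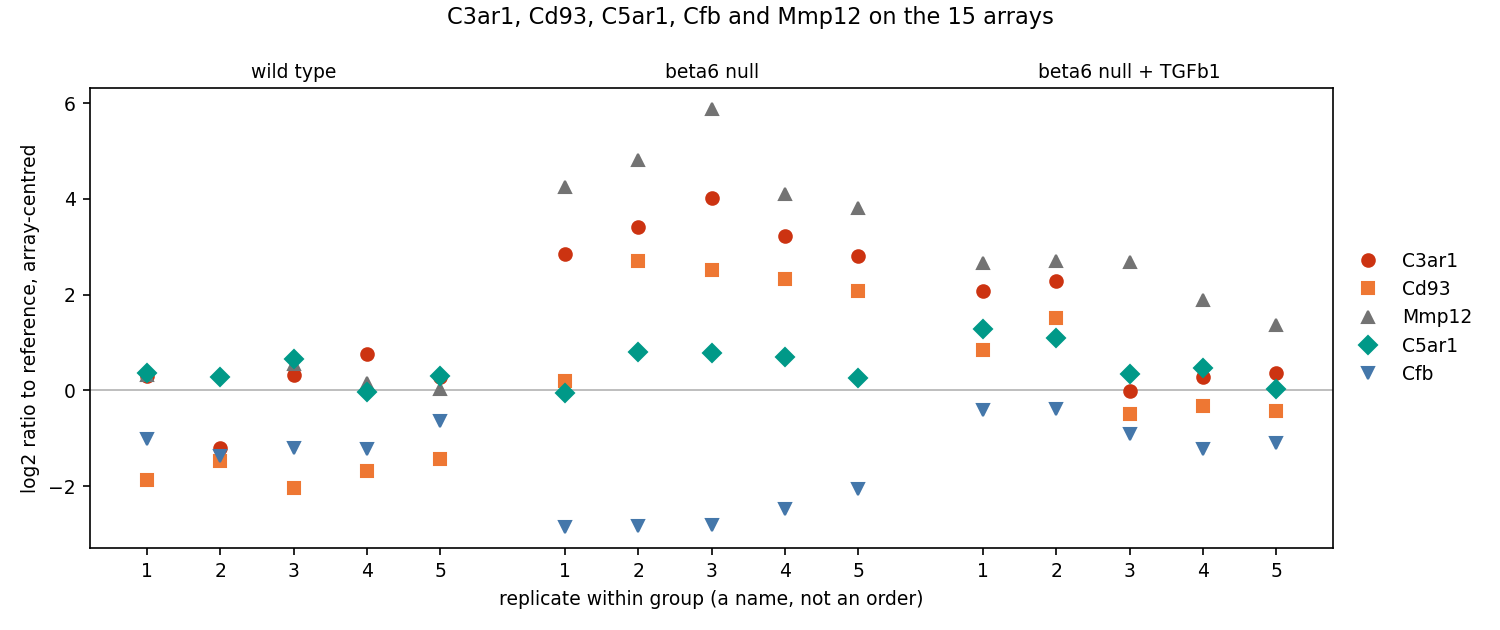
Centred log2 ratios of C3ar1, Cd93, C5ar1, Cfb and, for orientation, Mmp12 on the 15 arrays, ordered by group and replicate name; levels of different genes are not comparable. C3ar1 and Cd93 read 2.08 and 0.85 or more on TGFb1 replicates 1 and 2 and at most 0.37 and -0.32 on replicates 3 to 5, while Mmp12 reads 2.66, 2.70 and 2.69 on replicates 1 to 3.

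The genes of complement receptor chains and of C2, which lies next to Cfb in the RefSeq order, were named after their values were seen. Itgb2, the shared chain of complement receptors CR3 and CR4, averaged -1.20 ± 0.35 over wild type, -1.68 ± 0.70 over beta6 null and -1.17 ± 0.26 over TGFb1 arrays (SD, n = 5 each). Its partners Itgam (difference 0.24 in beta6 null against wild type, SE 0.74) and Itgax (0.04, SE 0.43) did not pass either. C2, the classical pathway counterpart of factor B, had values on 3 wild type, 2 beta6 null and 4 TGFb1 arrays, with means of 0.17, 0.23 and -0.93, and was not tested. Cd59a, an inhibitor of the membrane attack complex, read 2.54 to 4.24 on 4 wild type arrays, 0.36 to 2.63 on 3 beta6 null arrays and -3.21 to 1.94 on 5 TGFb1 arrays. The beta6 null arrays overlapped with both other groups, and their difference from wild type was -1.95 (SE 0.99, adjusted p = 0.477). The difference of -3.46 (SE 0.87) between the TGFb1 group and wild type was the largest of the 28 genes in this comparison and did not pass (adjusted p = 0.651).

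**Figure D4:**
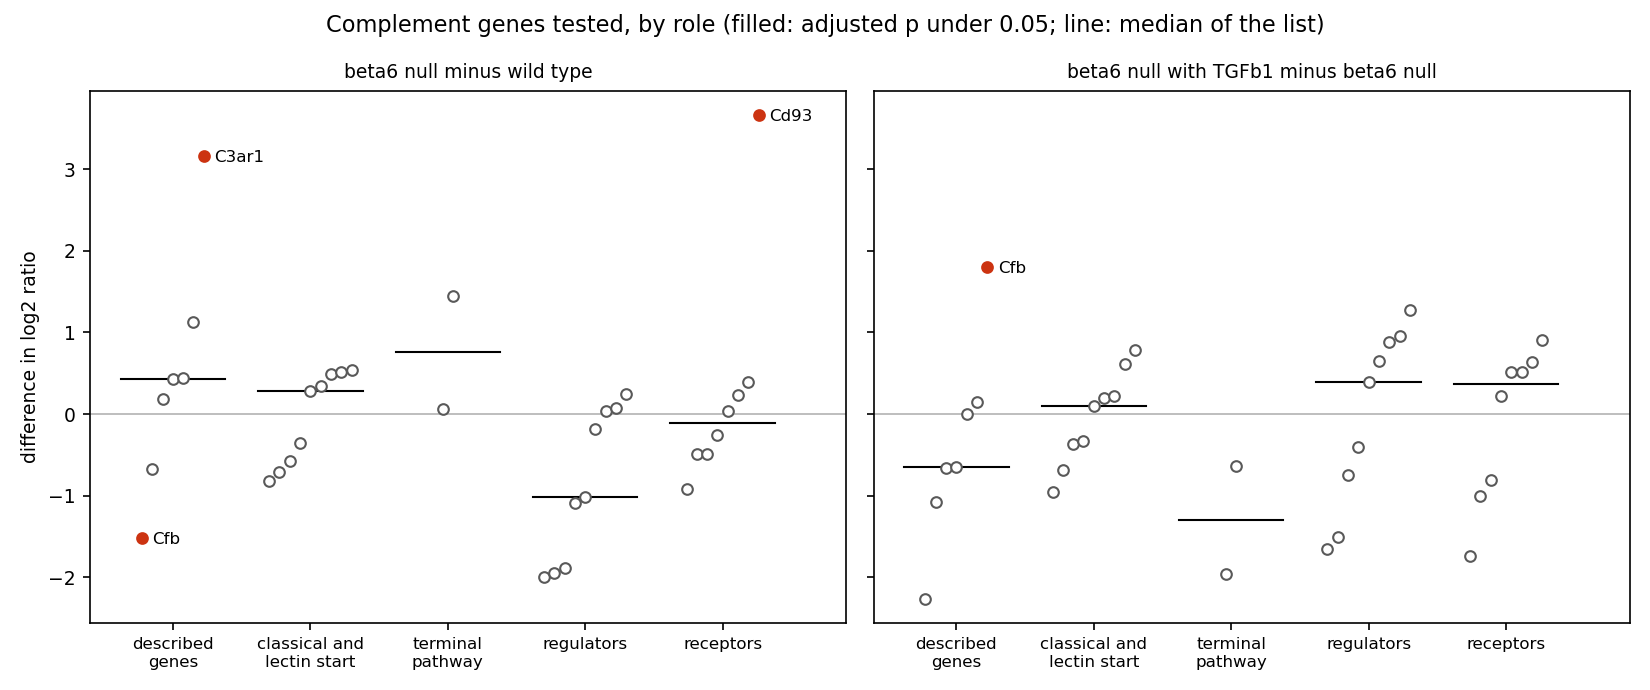
Differences in log2 ratio of the complement genes tested, by role, in beta6 null against wild type (left) and with TGFb1 against beta6 null (right); each point is 1 gene, the line is the median of the list, and filled points passed at an adjusted p under 0.05. C3ar1, Cfb and Cd93 pass on the left and Cfb on the right.

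By a fixed measure of likeness, the mean absolute gap over the 15 arrays after centring each gene on its own mean, the genes nearest to C3ar1 among 5503 were Marcks (gap 0.459), S100a4 (0.533) and Wfdc18 (0.537), where the median gene had a gap of 1.45. A gene flat over the arrays would have a gap of 1.40, the mean absolute deviation of C3ar1 itself. The median gap is thus near that of an unchanged gene. Marcks averaged 0.10 over the wild type arrays, 3.86 over the beta6 null arrays and 1.33 over those with TGFb1. The genes nearest to Cfb were Cd302 (gap 0.218), Klf10 (0.235) and Cd164 (0.272), where the median gene had a gap of 0.820. For Cfb a flat gene would have a gap of 0.736. Klf10 averaged -1.08, -2.15 and -0.42 in the 3 groups.

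The arrays held 11615 to 16483 values each, and their SD ran from 0.841 to 2.01, widest on wild type replicate 2 and beta6 null replicate 1. Without those 2 arrays C3ar1 differed by 2.94 and Cfb by -1.52 in beta6 null against wild type, and both passed. In RNA of a whole sample, fewer cells of a type and less RNA per cell cannot be told apart. Ratios to a reference do not show whether a marker is expressed at all. The mean log2 ratio of alveolar macrophage markers, over the 10 of 20 listed with values on all arrays, was -2.10 to -1.93 in beta6 null, -1.63 to -0.46 in wild type and -1.07 to -0.51 with TGFb1, so the beta6 null arrays lay below all others. Of 14 such markers tested, Cidec, Fabp1 and Olr1 were lower in beta6 null than in wild type, while with TGFb1 Fabp1, Olr1 and Pparg exceeded beta6 null. The other 11 did not pass in beta6 null against wild type. This list, Cidec, Fabp1 and Olr1 among it, was chosen with earlier results of these data known. The lower mean in beta6 null is therefore not an independent observation, and a general loss of these markers was not tested. Neutrophil markers (4 of 13) ran from -0.30 to 0.73 in beta6 null, -0.89 to -0.11 in wild type and -0.95 to 0.30 with TGFb1. Of 9 tested S100a8 alone passed in beta6 null against wild type, higher (2.13, SE 0.29), where 0.949% of all features passed. In that comparison 5 of the 9 differences lay above 0 and 4 below. Lung epithelium markers (7 of 18) ran from -0.81 to -0.37, -0.91 to 0.30 and -0.58 to 0.17 in the same order. Of 14 tested, Sftpc was higher (2.18, SE 0.47) and Epcam (-2.34, SE 0.42) and Krt19 (-2.01, SE 0.40) were lower in beta6 null than in wild type, while with TGFb1 Epcam and Krt19 exceeded beta6 null (1.98 and 2.37). Markers of recruited monocytes, interstitial macrophages and dendritic cells (3 of 15) ran from -0.54 to 0.25, -0.59 to 0.48 and -0.24 to 1.24, and of 9 tested Itgae was lower with TGFb1 than in beta6 null (-3.89, SE 0.73). None of the markers tested of T, B and NK cells (11), fibroblasts and endothelium (5) or erythroid cells (2) passed. The part of these in the results was not tested. Xist, an RNA that coats the silenced X chromosome, ran from -2.46 to 0.88 in beta6 null, -4.14 to -2.37 in wild type and -3.48 to -2.27 with TGFb1. Xist itself passed in beta6 null against wild type (2.69, SE 0.59, limma adjusted p = 0.0444). With TGFb1 it differed from beta6 null by -2.67 (SE 0.59, adjusted p = 0.0524). The group labels do not give the sex of the mice, and its part in the results was not tested. With the Xist value of each array added to the fit, the difference of C3ar1 in beta6 null was 3.18 (SE 0.825, adjusted p = 0.308). That of Cfb was -1.49 (SE 0.445, adjusted p = 0.463) and that of Cd93 3.18 (SE 0.793, adjusted p = 0.264). Without Xist these SEs were 0.498, 0.268 and 0.490. Because Xist differed with group, this fit cannot tell its level apart from the group. Cfb with TGFb1 against beta6 null was then 1.78 (adjusted p = 0.382), and 0 of all 13273 features passed by limma in any comparison.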

How the data were processed

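The authors deposited 1 log ratio per probe and array, taken here as log2. Neither the labels nor the file name a scanner, dye, background correction or normalization, and the sources used here do not give these steps. The deposited medians lay near 0, so the arrays appear centred. Scale (log base) and direction stay unknown.

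Of 17225 probes 30 control spots were left out. Of the rest 13972 carried 1 symbol in the platform annotation, 13 several and 3210 none, and symbols were updated by Entrez ID through RefSeq (GRCm38.p6). Each array was centred on its median, probes of a gene were averaged, and the 13273 features measured on 3 or more arrays in each group were fitted with limma 3.58.1 in R 4.3.3 (3 group means, all 15 arrays, eBayes, Benjamini-Hochberg, threshold 0.05). Group errors are SDs, and errors of differences are standard errors of the fit. No label pairs samples, and the number of arrays limits precision. Named are the 9 members, any other complement gene that passed, the 3 genes nearest to each called member, Mmp12 and Xist, and by hand C1qc, C2, Itgb2, Itgam, Itgax and Cd59a. Members, lists and alternatives were chosen with earlier results of these data known.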

Additional observations from a re-analysis of the deposited data

Results flagged for a closer look

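Among 45 sets of 4 or 5 arrays (17 genes by group), 4 held an array far from the others of its group, and chance alone marks about 1 set in 20. C3ar1 read -1.20 on wild type replicate 2, where the other wild type arrays read 0.28 to 0.77. That array was among the widest, and without it the difference of C3ar1 between beta6 null and wild type was 2.84 (adjusted p = 0.00944). C1qb read -0.43 on wild type replicate 1, beside 0.22 to 0.24 on the others with a value. C1qb read 1.34 on TGFb1 replicate 2, beside 0.16 to 0.44. Cd93 read 0.20 on beta6 null replicate 1, the other wide array, beside 2.08 to 2.70.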

How the results depend on the processing

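Results were recomputed under 12 other settings and 15 fits that left out 1 array, except that C1qb and C4b could be fitted in 26 and Cfp in 22 of these 27 for want of values. C3ar1 and Cfb kept their sign in all 27 in each of the 3 comparisons. The count of complement members that passed in beta6 null against wild type, 2, became 1 under quantile normalization and with the 10 arrays of those groups alone, and 0 with equal spread and with the Xist covariate; it was 2 in every fit without 1 array. With TGFb1 against beta6 null the count of 1 became 0 under quantile normalization, with equal spread and with the Xist covariate, and 2 on features with all 15 values, without the 2 widest arrays and with array weights. It ran from 1 to 2 in the fits without 1 array. The count of other complement genes, 1 in beta6 null, was 0 with the Xist covariate, and the count of 0 with TGFb1 became 1 without the 2 widest arrays and with array weights, and ran from 0 to 1 without 1 array. Among genes that never passed, the sign turned for Cfp (0.62) and C4b (-0.033) in beta6 null with the Xist covariate. For C1qa with TGFb1 against beta6 null it turned without centring (-0.016), with the Xist covariate (-0.067), in the fit blocked on the title suffix (-0.013) and when the 2 arrays with outlying title numbers were dropped (-0.028), and ran from -0.104 to 0.145 without 1 array. C5ar1 in that comparison ran from -0.006 to 0.309 without 1 array. C4b with TGFb1 against wild type was 0.005 with the suffix block and ran from -0.414 to 0.018 without 1 array. The cause of these changes was not tested. No paired analysis was possible because the labels give no replicate numbers shared between groups; those used here only name the arrays. Signal over background is not given by the file, so dim spots could not be told from bright ones.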
